A study of Mus musculus with 13 samples.

Results

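A set of 41 genes of mitosis was followed across the incisors of control, VDRgem and VDR-null mice: kinases and cyclins of mitotic entry, the chromosomal passenger complex, the spindle checkpoint, the kinetochore, spindle motors, cytokinesis factors and 2 chromosome proteins. The members were taken by symbol from the 34709 Ensembl genes of the deposited count table. All 41 were found, and all 41 passed the filter on low counts among 17837 genes tested. Each library was made from the RNA of lower incisors pulled from 5-day-old male pups. Pups labelled control gave 5 libraries, VDRgem pups 3 and VDR-null pups 5. The VDRgem receptor is a vitamin D receptor changed so that synthetic gemini analogs, but not the hormone itself, can switch it on, and VDR-null denotes a receptor gene without function, both as background knowledge of these mutants. The design asks which incisor transcripts differ when signalling through this receptor is impaired. No treatment is recorded, and neither the strain nor the exact alleles are named in the labels. Which animal gave which library is also unstated, so the p-values below rest on the spread between incisor samples, part of which may be technical.

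In mitosis, cyclin B with the kinase Cdk1 starts the condensation of chromosomes and the building of the spindle, kinetochores tie each chromosome to spindle fibres, and a checkpoint holds the cell until every chromosome is attached. The anaphase-promoting complex then destroys cyclin B, sister chromosomes part and the cell divides. Most of these transcripts are made only in the late part of the cell cycle, so tissues rich in dividing cells carry more of them. The mouse incisor grows throughout life from dividing epithelium and mesenchyme at its apical end, while the enamel- and dentin-forming cells nearer the tip have left the cell cycle. In whole teeth, fewer dividing cells and less of these RNAs per cell cannot be told apart.

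Total counts ran from 20405188 to 87783466 per library, and levels below are CPM (a gene's counts scaled to library size, with TMM factors that correct for library composition). The tissue label was checked with tooth transcripts: the enamel matrix gene Amelx stood at 5525 CPM or more and the dentin gene Dspp at 14519 CPM or more in every library. Vdr ranged from 142 to 180.3 CPM in control, 107 to 205 CPM in VDRgem and 204 to 281 CPM in VDR-null. A count per gene does not show an altered or truncated transcript, so Vdr does not check the labels. VDRgem 1 and 2 stood apart from the other libraries by their oral keratinocyte transcripts, whose summed level over 14 markers ran from 322 to 17264 CPM in VDRgem, 31.3 to 555 CPM in control and 26.9 to 137 CPM in VDR-null. Counts of calls in the mitosis and other cell cycle genes are therefore also given without them, with the same share for all genes tested.

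Mitosis transcripts were lower in VDRgem than in control incisors across every functional class. Of the 41 members, 37 fell and 0 rose, against 3.82% and 4.8% of all 17837 genes tested (8.62% called in all), and the other 4 (Spc25, Ndc80, Anln and Cenpf) had negative fold changes that missed the threshold. The median log2 fold change of the members was -1.05, beside 0.00 for all genes tested. In 40 of 41 members every VDRgem library lay below every control library, as it did in 10.3% of all genes tested, and in 0 members was the order the other way round (9.01% of all genes). VDRgem 1, 2 and 3 lay below every control in 41, 40 and 40 members, beside 31.4%, 24.7% and 24.7% of all genes. The single member with overlap was Spc25. Calls are from edgeR's quasi-likelihood test over all genes, at a Benjamini-Hochberg adjusted p under 0.05. DESeq2 called 40 members lower (5.79% of the genes it tested) and limma-voom 28 (2.96%). With only VDRgem and control in the model, edgeR called 40 members lower, all but Spc25, beside 5.39% of all genes. With VDR-null 2 left out of the fit of all groups, it again called 40, all but Spc25 (4.51%). Leaving out VDRgem 1 left 0 of 41 called, with a smallest adjusted p of 0.069 and a median of -0.97, and calls over all genes also fell away, from 1537 of 17837 to 66 of 18137 (0.149% lower). In that fit 40 members were lower at an unadjusted p under 0.05, beside 8.79% of all genes. Leaving out VDRgem 2, control 2, control 4 or control 5 left 22, 24, 22 or 14 members called lower, beside 1.74%, 2.02%, 1.77% and 1.37% of all genes, with medians of -1.12, -1.04, -1.01 and -1.01.

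**Figure D1:**
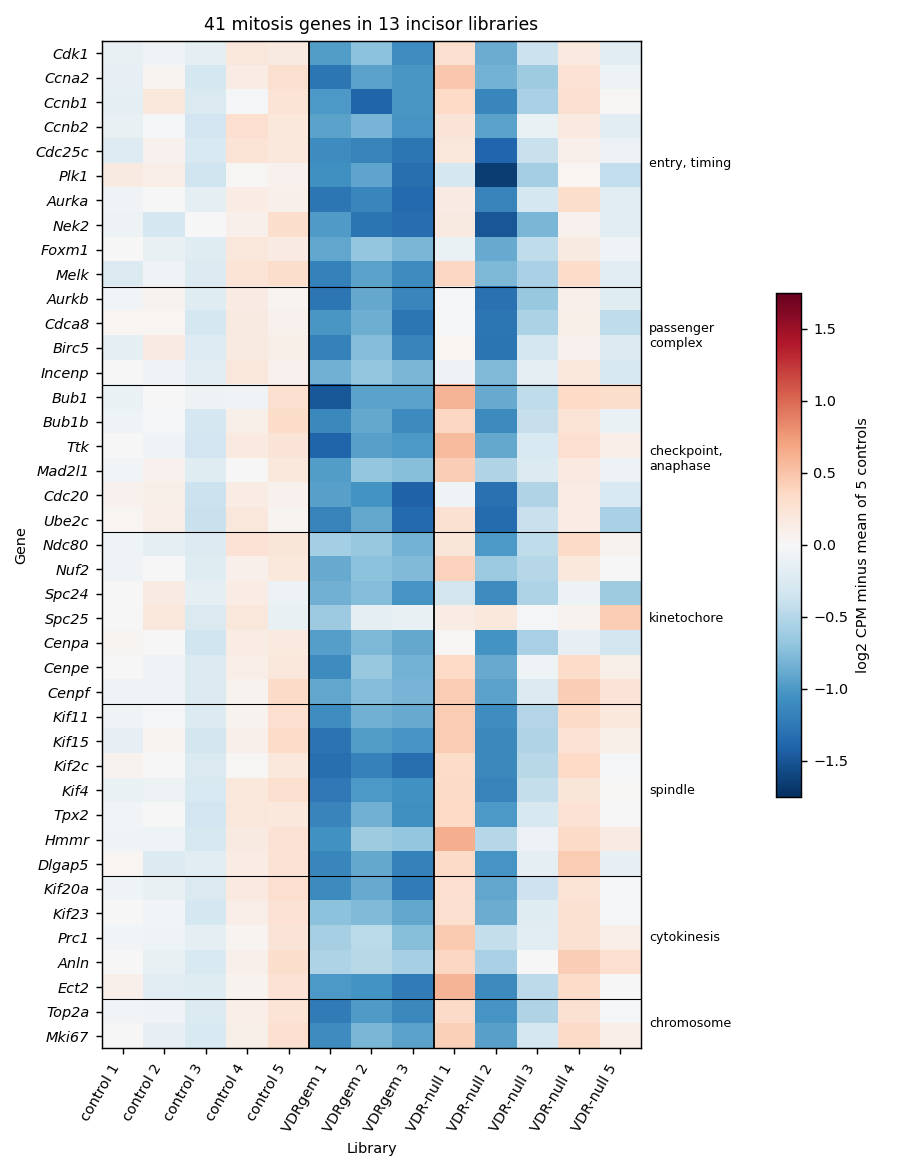
Log2 CPM of each of 41 mitosis genes (rows, in 7 functional classes) in each of 13 libraries (columns), minus the mean of the 5 controls; blue is lower and red is higher than that mean. The 3 VDRgem columns and VDR-null 2 are blue in nearly every row, with median differences of -1.07, -0.86, -1.03 and -1.0, and Spc25 is the row that departs from this.

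The 2 chromosome proteins gave the highest counts. Mki67, the Ki-67 protein that coats mitotic chromosomes and marks cycling cells, stood at 188, 169, 155, 201 and 229 CPM in control 1 to 5 and at 87.4, 107 and 97.1 CPM in VDRgem 1 to 3. In VDR-null 1 to 5 it stood at 250.2, 96.8, 151, 236 and 202 CPM. Every VDRgem library was below every control, and among the VDR-null libraries only the second was within the VDRgem range. On the log2 scale Mki67 fell in VDRgem by 0.95 (SE 0.24, adjusted p = 0.0303). Mki67 (ENSMUSG00000031004) is a protein-coding gene at chr7:135689784-135716361 in mm10, and Top2a (ENSMUSG00000020914) one at chr11:98992943-99024189, both on the minus strand. Top2a, the topoisomerase that untangles sister DNA, stood at 169, 167, 147, 190.2 and 208 CPM in control, 75.1, 87.7 and 80.1 CPM in VDRgem, and 222, 85.7, 121, 210.5 and 171 CPM in VDR-null. It fell in VDRgem by 1.12 (SE 0.25, adjusted p = 0.0184), and its groups had the same order as those of Mki67, with VDR-null 2 close to VDRgem.

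Because most members moved in one direction, their promoters were read from RefSeq (GRCm38.p6), in windows of 250 bases before to 50 after each start. Entries were matched by symbol for 32 of 41 members; Aurkb, Ccna2, Cdc25c, Dlgap5, Foxm1, Incenp, Kif20a, Spc24 and Tpx2 had none. The CHR element, read by the MuvB complexes that time late cell cycle genes, was searched as TTTGAA on both strands and found in 24 of 32 members, beside 14.7% of 12620 tested genes with a promoter entry. The CCAAT box, read by the factor NF-Y, was searched as CCAAT on both strands and found in 24 of 32 members, beside 42% of those genes. Both were in the same window in 20 of 32 members, beside 5.95%. TTTGAA was also held by Spc25, Ndc80, Anln and Cenpf, the members not called lower in VDRgem, and the CCAAT box by Spc25 and Cenpf. Whether either motif goes with the fall in VDRgem was not tested. The CHR variant TTTAAA was found in 9 of 32 members (11.5% of tested genes), and the E2F cores TTCGCGC and TTGGCGC in 2 and 5 (3.11% and 4.69%). A CCAAT box on the other strand, read as ATTGG, can share letters with TTGGCGC and with the end of TTTGAA. A match of so few letters is a description, not a bound site.

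Shown are the 6 members that fell in VDRgem with the smallest p among those holding TTTGAA, each as the 120 bases before the RefSeq start, 5′ to 3′ on the gene's strand. Capitals mark the CHR element (TTTGAA, or TTCAAA where it lies on the other strand) and the CCAAT box (CCAAT, or ATTGG on the other strand).
Aurka (chr2:172370571-172370690, minus strand): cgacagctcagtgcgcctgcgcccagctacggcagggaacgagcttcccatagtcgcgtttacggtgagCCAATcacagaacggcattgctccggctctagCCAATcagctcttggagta
Kif2c (chr4:117178773-117178892, minus strand): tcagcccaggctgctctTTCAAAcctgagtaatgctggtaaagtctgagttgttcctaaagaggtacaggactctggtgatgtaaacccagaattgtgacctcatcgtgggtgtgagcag
Cenpa (chr5:30666766-30666885, plus strand): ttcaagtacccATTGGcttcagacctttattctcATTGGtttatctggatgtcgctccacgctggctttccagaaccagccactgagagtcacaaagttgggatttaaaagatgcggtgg
Cdc20 (chr4:118437344-118437463, minus strand): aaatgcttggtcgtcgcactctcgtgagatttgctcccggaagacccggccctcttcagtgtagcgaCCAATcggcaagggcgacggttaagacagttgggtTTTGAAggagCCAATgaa
Top2a (chr11:99024190-99024309, minus strand): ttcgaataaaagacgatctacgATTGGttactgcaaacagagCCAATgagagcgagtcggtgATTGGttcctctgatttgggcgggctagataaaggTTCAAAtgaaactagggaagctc
Cdk1 (chr10:69352913-69353032, minus strand): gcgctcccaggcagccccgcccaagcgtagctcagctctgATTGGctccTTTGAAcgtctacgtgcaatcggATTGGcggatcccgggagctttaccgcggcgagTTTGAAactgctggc
In Aurka and Cenpa the CHR element lies after the start, at base 33 and base 17, as these 22-base stretches show.
Aurka site (chr2:172370525-172370546, minus strand): ggagaaccTTTGAAttgtaacg
Cenpa site (chr5:30666894-30666915, plus strand): ggtgatttTTTGAActgctggc
In Cdc20 a CHR element begins 18 bases before the start, between CCAAT boxes that begin 53 and 8 bases before it. In Cdk1 CHR elements begin 71 and 15 bases before the start, with CCAAT boxes at 80 and 48. Kif2c held a CHR element 103 bases before the start and no CCAAT box in its window. That RefSeq start lies inside the Kif2c gene as annotated in GENCODE M21 (chr4:117159639-117182639, minus strand). The sequence before the gene's annotated outer end was not read.

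Genes of mitotic entry and timing fell in 10 of 10 members, with log2 fold changes from -1.26 to -0.80 and a median of -1.10. Aurka, the kinase that matures centrosomes, stood at 16.7, 17.4, 15.4, 19.0 and 18.5 CPM in control and 7.17, 7.86 and 6.71 CPM in VDRgem. Its highest VDRgem library held less than any control, and the fall of 1.26 (SE 0.24, adjusted p = 0.0118) had the smallest p of the class. In VDR-null 1 to 5 it held 19.2, 7.72, 14, 21.5 and 15.2 CPM, with VDR-null 2 inside the VDRgem range and VDR-null 3 and 5 just below the lowest control. Cyclin A2, Ccna2, had the highest control level, at 49.8, 56.7, 44.1, 59.9 and 66.4 CPM against 22.7, 28.6 and 27.0 CPM in VDRgem, and fell by 1.09 (SE 0.25, adjusted p = 0.0213). Its VDR-null libraries held 75.7, 31, 35.7, 65.1 and 51.4 CPM, of which VDR-null 2 and 3 lay between the VDRgem and control ranges. The other falls included Cdk1 itself (43.6 ± 5.12 CPM in control, SD, n = 5, and 22.9 ± 3.05 CPM in VDRgem, n = 3), its activating phosphatase Cdc25c (8.87 ± 1.42 and 3.86 ± 0.222 CPM) and its partner Ccnb2 (27.1 ± 4.62 and 14.1 ± 1.09 CPM). Plk1, the polo kinase, and the centrosome kinase Nek2 stood at 21.7 ± 2.80 and 11.9 ± 1.86 CPM in control and at 10.1 ± 1.37 and 5.15 ± 0.679 CPM in VDRgem. Foxm1, a transcription factor of late cell cycle genes, fell by 0.80 (SE 0.18, adjusted p = 0.0208), the smallest fall of the class, while the kinase Melk fell by 1.09. Cyclin B1, Ccnb1, fell by 1.15 (SE 0.29, adjusted p = 0.0283), but its level is uncertain. Copies in 4 other genes share at least 95% identity with 51.9% of its longest transcript, and the sources used here do not say how reads with several matches were counted. In the other members such copies cover at most 7.6% of the longest transcript.

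The chromosomal passenger complex, which corrects wrong attachments and guides cytokinesis, fell in all 4 of its subunits. Its kinase Aurkb stood at 24.8, 26.8, 22.1, 28.2 and 26.5 CPM in control and 10.7, 13.8 and 11.5 CPM in VDRgem, without overlap, and fell by 1.10 (SE 0.24, adjusted p = 0.0184). At 25.3, 10.4, 16.2, 27.1 and 22 CPM in VDR-null 1 to 5, only VDR-null 2 lay as low as VDRgem. The scaffold Incenp stood at 57.8, 55.7, 50.7, 66.8 and 61.1 CPM in control and 32.5, 36.5 and 33.3 CPM in VDRgem, a fall of 0.78 (SE 0.16, adjusted p = 0.0153). In VDR-null it held 54.5, 33.9, 51.9, 65.9 and 47.8 CPM, again with VDR-null 2 alone at the VDRgem level. The targeting subunits Cdca8 (borealin) and Birc5 (survivin) fell by 1.05 and 1.04. The 4 subunits thus fell by 0.78 to 1.10 on the log2 scale, and differences among those values were not tested.

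The checkpoint and anaphase class fell in 6 of 6 members, with log2 fold changes from -1.15 to -0.80. Cdc20, the activator of the anaphase-promoting complex, stood at 34.0, 34.9, 24.9, 35.4 and 34.1 CPM in control and 16.7, 15.6 and 12.1 CPM in VDRgem, and fell by 1.14 (SE 0.25, adjusted p = 0.0183). Control 3 was low among the controls and still above each VDRgem library. The VDR-null libraries held 30.8, 13.1, 22.4, 35.4 and 27 CPM of Cdc20, with the second inside the VDRgem range. Bub1b, the checkpoint protein BubR1, stood at 42.5, 43.9, 36.2, 48.3 and 56.0 CPM in control and 20.6, 24.2 and 20.7 CPM in VDRgem, a fall of 1.06 (SE 0.26, adjusted p = 0.0258). For Bub1b the VDR-null values were 57.5, 20.7, 34.1, 53.1 and 41.3 CPM, from the VDRgem level in VDR-null 2 to above every control in VDR-null 1. The checkpoint kinases Ttk (9.65 ± 1.43 and 4.42 ± 0.729 CPM in control and VDRgem) and Bub1 (14.0 ± 1.67 and 6.53 ± 1.33 CPM) fell by 1.13 and 1.11. Mad2l1, which binds and restrains Cdc20, fell by 0.80 (SE 0.18, adjusted p = 0.0189). Ube2c, the ubiquitin carrier of the anaphase-promoting complex, fell by 1.15 (SE 0.28, adjusted p = 0.0269). On the opposite strand, 22.8% of the annotated exon length of Ube2c is shared with the muscle gene Tnnc2. Tnnc2 stood at 0.161 to 2.19 CPM in control, 2.22 to 11.9 CPM in VDRgem and 0.0716 to 54.9 CPM in VDR-null. The library with 54.9 CPM of Tnnc2, VDR-null 3, held 19.7 CPM of Ube2c. Opposite-strand neighbours also share 29.3% of the exon length of Kif20a (Cdc23), 15.1% of Kif4, 12.7% of Cdc25c, 12.5% of Ccna2 and 11.1% of Prc1. No source used here gives the strand setting of the counting, and the part of Tnnc2 in the Ube2c counts was not tested.

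Kinetochore and centromere genes fell in 4 of 7 members: Spc24, Nuf2, the centromeric histone Cenpa and the motor Cenpe. Ndc80, Nuf2, Spc24 and Spc25 are the 4 subunits of the NDC80 complex, the rod that grips spindle fibres, so they are needed together. Spc24 stood at 13.1, 14.3, 11.6, 14.2 and 12.1 CPM in control and 7.27, 7.70 and 6.34 CPM in VDRgem, and fell by 0.88 (SE 0.18, adjusted p = 0.0155). Nuf2 fell by 0.80 (SE 0.20, adjusted p = 0.0287). Ndc80 missed the threshold, at 9.55, 9.04, 8.51, 12.1 and 11.7 CPM in control and 6.64, 6.36 and 5.68 CPM in VDRgem (log2 fold change -0.71, SE 0.25, adjusted p = 0.095), although the groups did not overlap. Its VDR-null libraries ran from 5 CPM in VDR-null 2, below every VDRgem library, through 7.39, 10.5 and 11.7 CPM in VDR-null 3, 5 and 1 to 12.7 CPM in VDR-null 4, above every control. Spc25 (ENSMUSG00000005233, chr2:69193895-69206194, minus strand in mm10, protein-coding) stood at 24.8, 28.4, 20.9, 28.5 and 22.7 CPM in control, 15.9, 22.4 and 22.7 CPM in VDRgem, and 27.3, 28.3, 24.2, 25.9 and 33.9 CPM in VDR-null. VDRgem 2 and 3 lay within the control range, and the log2 fold change was -0.30 (SE 0.15, adjusted p = 0.233). VDR-null 2, low in the other 40 members, held 28.3 CPM of Spc25, near the top of the controls. Per kilobase of each gene's principal annotated transcript, the control levels were 21 ± 2.84 CPM for Spc25, 9.56 ± 0.904 for Spc24, 6.56 ± 0.682 for Nuf2 and 4.62 ± 0.724 for Ndc80 (SD, n = 5), so Spc25 was also the most abundant of the 4. The large kinetochore protein Cenpf stood at 47.1, 47.6, 41.9, 51.9 and 62.9 CPM in control and 26.4, 29.4 and 28.4 CPM in VDRgem, without overlap, and missed the threshold (-0.84, SE 0.25, adjusted p = 0.0511). In VDR-null 1 to 5 Cenpf held 67.6, 25.9, 42.1, 67.4 and 58.2 CPM, with VDR-null 1 and 4 above every control and VDR-null 2 below every VDRgem library.

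The spindle motors and assembly factors fell in 7 of 7 members, with a median log2 fold change of -1.09. Kif2c, a kinesin that takes microtubules apart at kinetochores, stood at 18.2, 17.4, 14.6, 17.8 and 19.8 CPM in control and 7.0, 7.70 and 6.99 CPM in VDRgem. Its fall of 1.28 (SE 0.26, adjusted p = 0.0152) was the largest among the 41 members. Tpx2, which activates Aurora A on the spindle, stood at 61.7, 64.0, 50.9, 73.1 and 72.9 CPM in control and 28.8, 35.9 and 30.4 CPM in VDRgem, a fall of 1.03 (SE 0.24, adjusted p = 0.0212). In VDR-null it held 81.6, 32, 52.7, 76.2 and 64 CPM, with VDR-null 2 inside the VDRgem range. The kinesins Kif11 and Kif15, which push spindle poles apart, fell by 0.95 and 1.11, the chromosome-arm kinesin Kif4 by 1.12, the spindle protein Dlgap5 by 1.09 and the microtubule-binding Hmmr by 0.79 (SE 0.22, adjusted p = 0.0368).

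Central spindle and cytokinesis genes fell in 4 of 5 members. Kif20a, a kinesin of the central spindle, stood at 44.8, 42.9, 39.7, 53.1 and 57.7 CPM in control and 21.8, 25.6 and 20.1 CPM in VDRgem, and fell by 1.08 (SE 0.23, adjusted p = 0.0164). Its VDR-null values were 58, 25, 36.8, 55.8 and 46.6 CPM, the second of them inside the VDRgem range. The microtubule bundler Prc1 stood at 50.8, 49.7, 46.8, 54.1 and 61.0 CPM in control and 34.9, 37.8 and 31.3 CPM in VDRgem, a smaller fall of 0.60 (SE 0.16, adjusted p = 0.0386). In VDR-null, Prc1 stood at 72, 39.2, 46, 63.1 and 56.7 CPM, with VDR-null 2 and 3 between the VDRgem and control ranges. Ect2, which switches on the contractile ring, fell by 1.10 and its partner Kif23 by 0.81. Anillin, Anln, a scaffold of the contractile ring, stood at 32.9, 30.2, 27.6, 35.0 and 40.9 CPM in control and 22.7, 23.5 and 22 CPM in VDRgem, and missed the threshold (-0.55, SE 0.19, adjusted p = 0.0898) without overlap between groups. VDR-null 1 to 5 held 42.5, 22.2, 33.1, 44.6 and 40.5 CPM of Anln, and VDR-null 2 was the one at the VDRgem level.

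**Figure D2:**
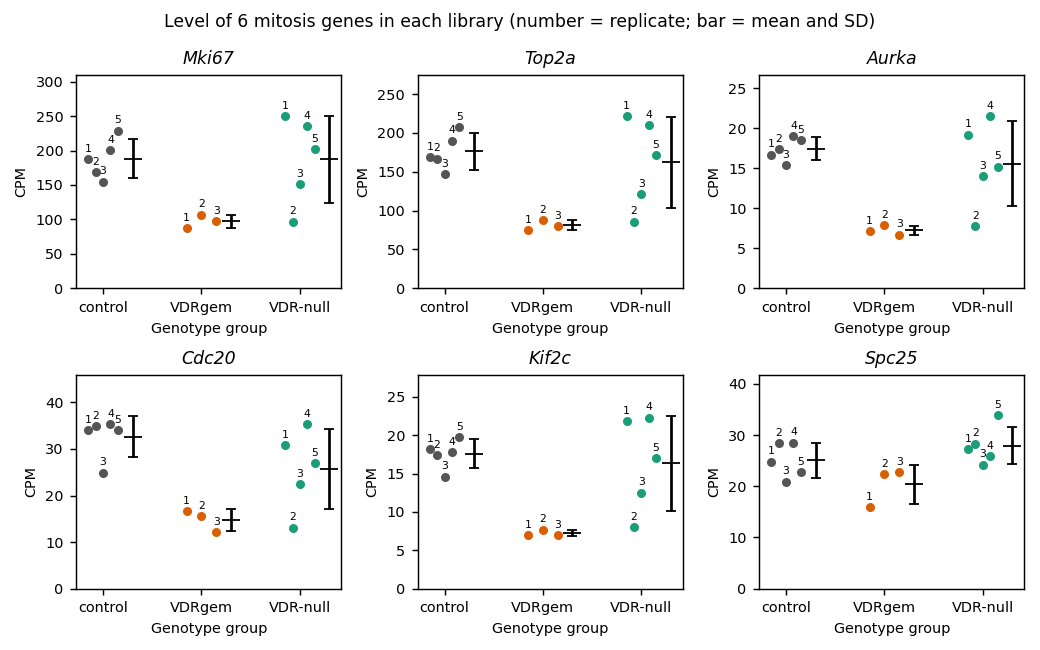
CPM of 6 mitosis genes (vertical axes, from 0) in each library, by genotype group; numbers are replicates and bars give mean and SD. VDRgem libraries lie below every control in 5 of the 6 genes and overlap with controls in Spc25. VDR-null libraries span both levels in Mki67 (96.8 to 250.2 CPM), Top2a, Aurka and Cdc20. In Kif2c and Spc25 every VDR-null library lies above every VDRgem library.

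In VDR-null incisors, compared with the same controls, no member passed the same test. Of 41 members 0 fell and 0 rose in edgeR, beside 0.656% and 0.678% of all genes tested (1.33% called in all). Unadjusted, 3 members (Spc24, Cenpa and Plk1) were lower at p under 0.05, beside 11.1% of all genes lower at that p. DESeq2 called 1 (Spc24) lower, beside 5.21% of its genes, and limma-voom 0 (0.678%). In 0 of 41 members did the groups part with VDR-null lower, beside 3.18% of all genes. The median log2 fold change was -0.10, beside 0.01 for all genes tested. The smallest adjusted p was that of Spc24, at 10.4, 6.04, 8.97, 12.3 and 8.47 CPM in VDR-null 1 to 5 (log2 fold change -0.50, SE 0.16, adjusted p = 0.0889). Leaving out VDR-null 4 put Spc24 past the threshold, as the 1 member called, with an edgeR adjusted p of 0.0466. Mki67 had the value nearest to 0, at -0.01 (SE 0.20, adjusted p = 0.986). The 2 mutant comparisons share their controls, so their values are given side by side and are not independent.

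**Figure D3:**
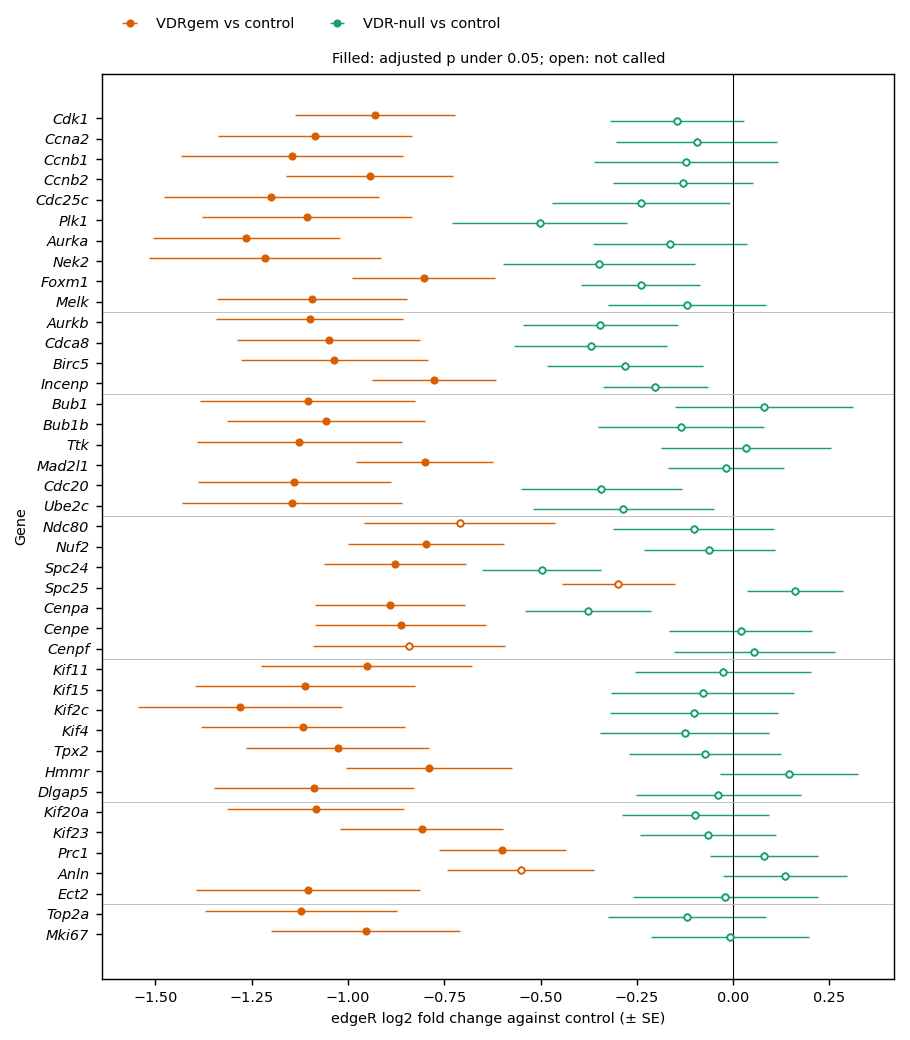
Log2 fold change against control with its SE (horizontal axis) for 41 mitosis genes in VDRgem (orange) and VDR-null (green) incisors; filled points passed an adjusted p of 0.05 and open points did not. Values ran from -1.28 to -0.30 in VDRgem and from -0.50 to 0.16 in VDR-null, and both comparisons use the same 5 controls.

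The VDR-null libraries were widely spread in these genes. VDR-null 2 lay below every control in 40 of 41 members, beside 27.8% of all genes tested, and its median difference from the control mean was -1.0 on the log2 scale. VDR-null 3 lay below every control in 29 members (24.3% of all genes), with a median of -0.40. VDR-null 1 and 4 lay above every control in 27 and 21 members (28.9% and 24% of all genes), with medians of 0.33 and 0.25, and VDR-null 5 was at -0.04. The median SD of a member's log2 CPM was 0.554 in VDR-null, 0.208 in control and 0.148 in VDRgem, beside 0.236, 0.161 and 0.201 for all genes tested. Without VDR-null 2 the group's median log2 fold change was 0.04, with 0 members called by edgeR and 2 lower at an unadjusted p under 0.05 (0.0169% and 10.1% of all genes). Controls differed too: control 3 was below the other 4 controls in 37 members, beside 19.2% of all genes, with a median of -0.25.

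Within these swings the members kept to each other. The offset of a member from the mean of the other 40, in log2 CPM, had an SD over the 13 libraries of 0.153 at the median member. It was smallest for Tpx2 (0.0669), Bub1b (0.0751) and Cdk1 (0.0835). It was largest for Spc25 (0.45), followed by Spc24 (0.262) and Plk1 (0.255). Measured from its own mean offset over the 13 libraries, Plk1 was lowest in VDR-null 2, at -0.51. Spc25, measured likewise, had its highest offset there, 0.90. These values describe this set of libraries and were not tested.

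A direct test of VDRgem against VDR-null asks whether the mutants differ. Of 41 members 35 were called lower in VDRgem and 0 higher, against 8.18% and 10.6% of all genes tested (18.8% called in all), and the median log2 fold change was -0.88 (-0.02 for all genes). The smallest p-values belonged to Aurka (-1.10, SE 0.24, adjusted p = 0.0103), Kif2c (-1.18, SE 0.26, adjusted p = 0.0113), Mad2l1 (-0.78, SE 0.18, adjusted p = 0.0121), Ttk (-1.16, SE 0.27, adjusted p = 0.0124), Hmmr (-0.93, SE 0.22, adjusted p = 0.0125) and Kif20a (-0.98, SE 0.23, adjusted p = 0.0127). Kif2c held 21.8, 7.97, 12.5, 22.3 and 17 CPM in VDR-null 1 to 5, so even VDR-null 2 was above the VDRgem maximum of 7.70 CPM. The hyaluronan receptor Hmmr, at 24.1, 11.0, 14.5, 19.6 and 17.1 CPM in VDR-null and 7.42, 9.99 and 9.67 CPM in VDRgem, also did not overlap. In all, 10 of 41 members had every VDRgem library below every VDR-null library, as in 8.84% of all genes tested, and 0 the reverse (9.17%). DESeq2 called 37 members lower (9.29% of its genes) and limma-voom 26 (7.95%). Spc25 was among these 10 and was called lower (-0.46, SE 0.15, adjusted p = 0.0437), while Spc24, Ndc80, Plk1, Nek2, Cdca8 and Cenpa were not called. This result depends on the fit: with only the 2 mutant groups in the model 0 of 41 were called, with 38 lower at an unadjusted p under 0.05 and a smallest adjusted p of 0.0581, beside 0.964% and 12.3% of all genes. Without VDRgem 1, 2 or 3 the count was 0, 16 or 23, beside 0.623%, 2.52% and 10.8% of all genes called lower. Without VDR-null 1 or 4 it was 19 or 22 (4.29% and 5.4% of all genes).

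The wider mitotic machinery was read from 92 further genes that share no member with the 41. In VDRgem 56 of 92 fell and 0 rose, beside 3.82% and 4.8% of all genes, with a median log2 fold change of -0.74. Those with the smallest p were the microtubule regulator Psrc1 (19.4 ± 2.51 CPM in control, SD, n = 5, and 7.79 ± 0.471 CPM in VDRgem, n = 3), the kinetochore subunit Nsl1 (8.86 ± 0.934 and 3.51 ± 0.440 CPM), Spdl1, which brings dynein to kinetochores (8.25 ± 0.564 and 3.91 ± 0.240 CPM), and the cyclin Ccnf (20.6 ± 1.83 and 8.54 ± 0.0557 CPM). Their log2 fold changes were -1.31, -1.33, -1.08 and -1.27, with adjusted p of 0.00944, 0.00982, 0.00982 and 0.0118. The single gene of this list with a positive value was Zw10, at 0.01 (adjusted p = 0.935), named after its value was seen. In VDR-null 0 of 92 were called by edgeR (0.656% of all genes lower). At an unadjusted edgeR p under 0.05 there were 16, of which 13 were lower (11.1% of all genes lower). DESeq2 called 4 lower (5.21%) and 2 higher, beside 729 higher of its 15971 genes. Between the mutants 53 of 92 were lower in VDRgem, beside 8.18% of all genes. Without VDRgem 1, 2 or 3 the count against control was 1, 22 or 37, beside 0.149%, 1.74% and 4.22% of all genes. Without control 1, 2, 4 or 5 it was 28, 28, 23 or 19, beside 2.01%, 2.02%, 1.77% and 1.37%. For the difference between mutants it was 3 without VDRgem 1 and 26 without VDRgem 2 (0.623% and 2.52% of all genes).

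DNA replication genes, which act before mitosis in the same cells, fell in 23 of 31 members in VDRgem, beside 3.82% of all genes, with a median of -0.67. Without VDRgem 1, 2 or both, a setting chosen for these lists after the data were seen, the count was 0, 8 or 0 (0.149%, 1.74% and 0.021% of all genes), with medians of -0.69, -0.70 and -0.78. The replication licensing factor Cdt1 was the 1 replication gene of 31 called in VDR-null, where 0.656% of all genes were lower, at 9.56 ± 2.48 CPM against 15.6 ± 1.02 CPM in control (-0.71, adjusted p = 0.0411), and it fell by 0.64 in VDRgem (adjusted p = 0.0358). Its VDR-null libraries, at 9.02, 6.32, 9.33, 13.3 and 9.85 CPM, were all below the lowest control of 14.4 CPM. The loading factor Cdc6 fell by 1.18 in VDRgem. Whether the median of the mitosis genes differs from that of the replication genes was not tested.

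G1 cyclins and their kinases, which drive entry into the cycle, moved unevenly. Cyclin D1, Ccnd1, stood at 109.9, 105, 91.7, 104 and 98.6 CPM in control and 48.8, 55.8 and 52.4 CPM in VDRgem, and fell by 0.96 (SE 0.19, adjusted p = 0.0123). In VDR-null it held 105, 52.7, 104, 116 and 87.7 CPM, with VDR-null 2 again at the VDRgem level. Cyclin E2, Ccne2, fell by 0.82 (SE 0.20, adjusted p = 0.0265), so 2 of 8 fell and 0 rose, beside 3.82% and 4.8% of all genes. Without VDRgem 1, 2 or both, 0, 1 (Ccnd1) or 0 of the 8 were called. Cyclin D2, Ccnd2, was the most abundant of them, at 363 ± 12.0 CPM in control and 359 ± 28.9 CPM in VDRgem (log2 fold change -0.01, adjusted p = 0.941). Of 7 CDK inhibitors 0 were called by edgeR in either mutant against control. At an unadjusted p under 0.05 there were 3 of 7 in VDRgem (1 lower, 2 higher) and 2 of 7 in VDR-null (2 lower). Of all genes tested, 23.9% and 22.8% passed that p. Cdkn2c, at 24.0 ± 1.64 CPM in control and 19.2 ± 1.51 CPM in VDRgem, had the smallest p (-0.33, adjusted p = 0.0502). Cdkn2b and Cdkn1c were higher in VDRgem than in VDR-null (1.36 and 0.70, adjusted p = 0.00643 and 0.036), beside 10.6% of all genes. Those 2 calls became 0 without VDRgem 1 and 1 (Cdkn2b) without VDRgem 2, beside 1.77% and 6.67% of all genes. DREAM and MuvB are complexes that time cell cycle transcription, and the list of 18 named for them also holds Rb1 and E2F genes outside them. E2f2 and E2f7 are such genes, and Mybl2 is a partner of MuvB. Of the 18 only E2f2, E2f7 and Mybl2 fell in VDRgem, by 0.75, 1.14 and 0.93. In that list 0 rose, beside 3.82% lower and 4.8% higher of all genes. Those 3 became 0, 1 (E2f2) or 0 without VDRgem 1, 2 or both.

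**Figure D4:**
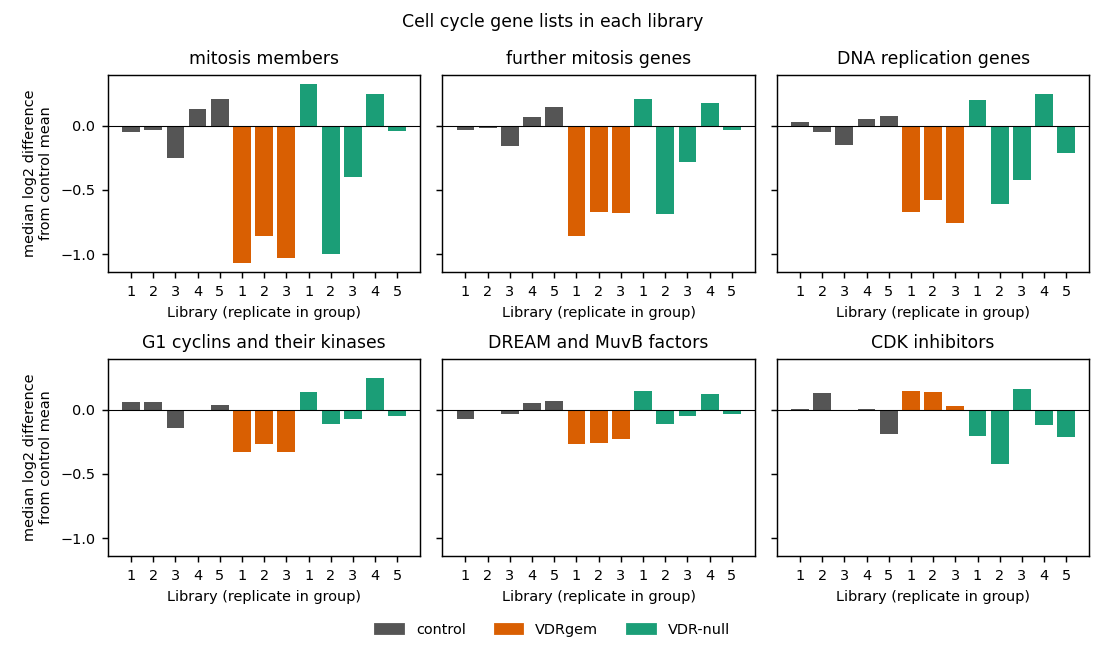
Median difference from the control mean (log2 CPM, vertical axes) of 6 cell cycle gene lists in each library, numbered by replicate within control (grey), VDRgem (orange) and VDR-null (green). For mitosis members the bars of VDRgem and of VDR-null 2 and 3 point down (-1.07 to -0.40), and the G1, DREAM and CDK inhibitor lists stay between -0.42 and 0.25.

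Markers of other cells were set beside the mitosis level of each library. The mean log2 CPM of the 41 members was 3.72, 3.91 and 3.75 in VDRgem 1, 2 and 3, 4.51 to 4.95 in control, and 5.02, 3.78, 4.38, 4.98 and 4.69 in VDR-null 1 to 5. Oral keratinocyte markers stood at 7.89, 6.03 and 2.52 in VDRgem 1, 2 and 3 on that scale, -0.64 to 2.68 in control and -0.96 to 1.12 in VDR-null. In VDRgem 11 of 12 tested markers rose, beside 4.8% of all genes, and 2 did so without VDRgem 1 (0.215%). Of the 14, Ivl was at 0 in all VDRgem libraries. VDRgem 3 lay within the control range by that mean only through control 4, at 2.68, since the other controls reached 1.58 at most. It was also above every control in Krt10, Krt6a, Krt6b, Krt16 and Dsg1a. The mitosis level of VDRgem 3 was nearly that of VDRgem 1. VDR-null 2 stood at 3.78 in mitosis genes and at -0.18 in keratinocyte markers. The part of keratinocytes in the mitosis level was not tested. With VDRgem 3 as the lone VDRgem library, taken to vary like the other groups, the median log2 fold change was -1.06, with 0 members called by edgeR and 35 lower at an unadjusted p under 0.05 (0.021% and 6% of all genes). With the keratinocyte level as a covariate the median was -1.05, and 0 members were called, as were 0 of all 17837 genes. At an unadjusted p under 0.05, 31 members were lower in that fit, beside 7.11% of all genes.

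**Figure D5:**
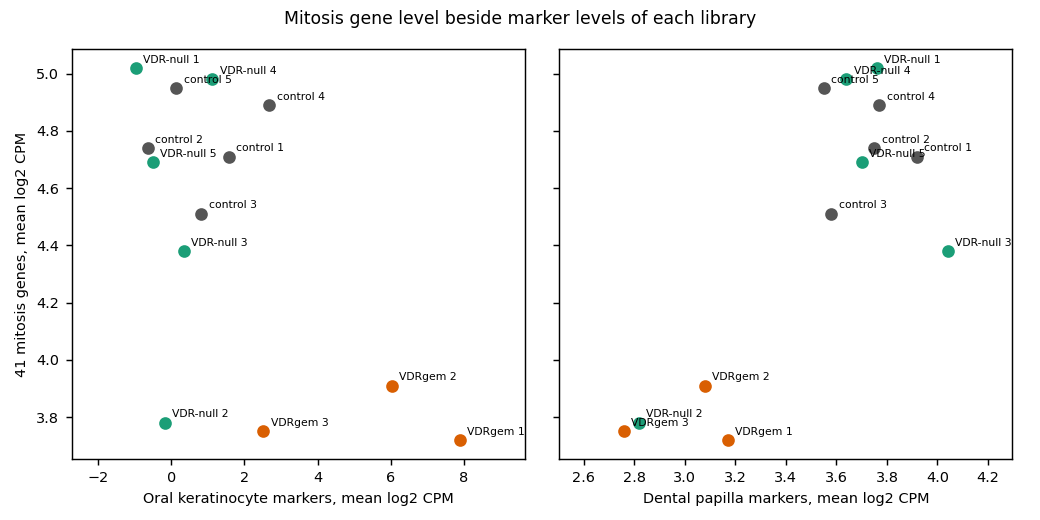
Mean log2 CPM of 41 mitosis genes (vertical axes) against that of 14 oral keratinocyte markers (left) and 8 dental papilla markers (right) in each of 13 libraries, coloured by group. VDRgem 1, 2 and 3 and VDR-null 2 have mitosis levels of 3.72, 3.91, 3.75 and 3.78 at keratinocyte levels of 7.89, 6.03, 2.52 and -0.18. These 4 libraries, the ones below 4 on the mitosis axis, are also the 4 lowest in papilla markers. Neither relation was tested.

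Dental papilla markers, which include growth factors of the apical mesenchyme, were low by mean log2 CPM in the libraries low in mitosis genes. That mean was 3.17, 3.08 and 2.76 in VDRgem 1 to 3 and 2.82 in VDR-null 2, and 3.55 to 4.04 in the other 9 libraries. Of 8 papilla markers 3 (Fgf3, Fgf10 and Lhx6) fell in VDRgem (0 without VDRgem 1) and 0 rose, beside 3.82% and 4.8% of all genes. Each of the 3 was lowest in VDRgem 1 to 3 and VDR-null 2. Log2 fold changes were negative in 5 of the 8 and reached 1.31 at most, and 1 marker was higher at an unadjusted edgeR p under 0.05. Runx2 stood at 150.3 to 179 CPM in VDRgem and 128 to 151 CPM in control. The mean also counts Barx1, at 0.0964 to 0.226 CPM in control. The summed level of all 8, which the more abundant Msx1 and Runx2 dominate, overlapped between groups, at 371 to 479 CPM in control, 415 to 429 CPM in VDRgem and 374 to 479 CPM in VDR-null. The growth factor Fgf3 stood at 2.12 to 3.5 CPM in control, 0.192 to 0.462 CPM in VDRgem, and 0.573 CPM in VDR-null 2. VDR-null 3, intermediate in mitosis genes, had the highest mean, 4.04, with Barx1 at 3.6 CPM (at most 1.09 CPM elsewhere) and with Fgf10, Lhx8 and Pax9 below every control, at 2.99, 22 and 28 CPM. Skeletal muscle markers stood at 3.58, 1.21 and 0.60 (mean log2 CPM) in VDRgem 1 to 3, all above the controls at -1.23 to 0.52, and at -2.13, -0.56, 4.55, 0.44 and 1.11 in VDR-null 1 to 5. Their summed level over 12 markers was 34.4 to 274 CPM in VDRgem, 9.13 to 32.2 CPM in control and 5.84 to 686 CPM in VDR-null, with Myod1 at 0 in every control. Erythroid markers, another possible source of dividing cells, ran from 2.82 to 3.05 in control, 2.89 to 3.60 in VDRgem and 1.25 to 3.19 in VDR-null. Lymphocyte markers summed to at most 16.5 CPM in any library, with the T-cell marker Cd3e at 0 in control 2, control 3 and VDR-null 2. Of the other lists, 2 of 6 ameloblast and 2 of 6 endothelial markers and 1 of 10 tested muscle markers (Myh3) rose in VDRgem. There 0 of 5 odontoblast and 0 of 7 macrophage markers were called, and of 6 dental epithelium markers 2 rose and 2 (Shh and Sp6) fell. Of all genes tested 4.8% rose and 3.82% fell in VDRgem. Leaving out VDRgem 1 left 0 markers of these lists called, beside 0.215% higher and 0.149% lower of all genes. In VDR-null 1 macrophage marker, Adgre1, rose, and 0 of the other markers were called. The part of any of these cells in the mitosis result was not tested.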

How the data were processed

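Per the labels' protocols, poly-A RNA was purified from 300 ng of total RNA and made into strand-specific libraries with 12 PCR cycles. The deposited values are whole-number counts per gene, and the submitters' processing notes name STAR 2.5.3a, HTSeq 0.6.1p1, bcl2fastq 2.20.0.422 and the mm10 genome as what the authors used. The annotation release, counting mode and strand setting were not found in them. Symbols came from GENCODE M21 and promoters from RefSeq (GRCm38.p6).

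All 34709 genes were filtered with filterByExpr (minimum count 10), scaled with TMM and tested with edgeR 4.0.16 (R 4.3.3), in 1 quasi-likelihood fit of all 13 libraries with a mean per group, with Benjamini-Hochberg adjustment over 17837 genes. Log2 CPM used a prior count of 2. Copies were sought with BLAST 2.17.0 (identity of at least 95% over 100 bases). Alternatives included DESeq2 1.42.0, limma-voom (limma 3.58.1), other scalings, filters, thresholds and samples. In simulated counts with VDRgem against control, 24% of genes changed by 0.5 and 92% of those changed by 1 (log2) were recovered. Figures were drawn with matplotlib 3.10.9.

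Members and lists were chosen with earlier results of these data known. Values in every library are given, per functional class, for the member with the smallest p in VDRgem against control and the one with the highest control level. They are also given for Mki67 and Top2a, and for up to 6 members not called there or called in another comparison. Of the latter, Mad2l1, Ttk and Hmmr are not printed in every library. Up to 4 genes of each other list are named by smallest p. Ccnd2, Cdkn1c, Cdkn2b and the markers named were chosen after their values were seen. A list member that entered the counts is not reported here by name.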

Additional observations from a re-analysis of the deposited data

Results flagged for a closer look

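In control 5, Bub1 stood at 17 CPM, set apart above the other 4 controls, which held 12.9 to 13.9 CPM. In control 3, Cdc20 stood at 24.9 CPM, set apart below the other 4 controls at 34.0 to 35.4 CPM. Both gaps passed Dixon's 95% critical value of 0.71 for 5 samples. These were 2 of 82 groups tested (41 genes in control and in VDR-null), and chance flags about 1 in 20. The 3 VDRgem libraries are too few for this test.

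For 35 members the effects of VDRgem and VDR-null against the shared controls differed in the direct edgeR test of VDRgem against VDR-null. That count was 0 without VDRgem 1, where 0.623% of all genes were called lower.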

How the results depend on the processing

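The medians of the members stayed negative in both VDRgem comparisons under every alternative run, and no called value changed sign, but the counts of calls moved. In VDRgem against control, 37 members became 0 with the keratinocyte level as covariate, 0 without VDRgem 1 and 2, 0 at an adjusted p under 0.01, and 0 to 40 when each library was left out. The 56 further mitosis genes became 0, 0 and 3 under those settings, 36 with limma-voom, and 1 to 64 with each library left out. In VDR-null against control, the 0 members became 1 with DESeq2 and 1 at an adjusted p under 0.10. The count was 0 to 1 with each library left out. Under the selection stated with the series (unadjusted p under 0.05, log2 change over 0.3) 3 members were lower. That selection held 7.79% of all genes as lower in VDR-null. The 0 further genes called lower became 4 with DESeq2 (and 2 higher), 4 at an adjusted p under 0.10 and 11 under the stated selection. With each library left out the count was 0 to 3. It was 1 with limma-voom, a floor of 1 CPM on the mean, no filter on low counts, only the 2 groups compared, or robust dispersion. In VDRgem against VDR-null, the 35 members became 0 with the covariate, with only the 2 groups compared, without VDRgem 1 and 2 and at 0.01, and 0 to 40 with each library left out. The 53 further genes became 0, 6, 0 and 11 under those settings and 3 to 67 with each library left out. The cause was not tested. With library totals only, the median of that comparison was -1.07, where the median of all genes was -0.188. Of 34 calls of named members in the VDRgem comparisons, 34 were lost without VDRgem 1. No paired analysis was possible because the labels give no replicate numbers that groups share. With 3 VDRgem libraries, changes near 0.5 (log2) are often missed.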
